A study of Homo sapiens with 15 samples.

Results

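The complement and acute phase genes described here are 9 genes: the complement proteases C1R and C1S, the central component C3 with factor B (CFB), the regulators CFI, CD55 and CD59, and the plasma proteins haptoglobin (HP) and alpha-1-antitrypsin (SERPINA1). They were chosen by symbol with their log2 RPKM differences between the 5 lines already known, and all 9 were among the 16604 genes measured. RNA was sequenced from 15 samples of 5 human lines, with 3 biological replicates per line. Ovcar4Parental is OVCAR4, a long-established cell line from a high-grade serous ovarian tumour, labelled sensitive to carboplatin and cisplatin. Ov4Cis was derived from it by culture in rising cisplatin and is labelled cisplatin resistant, and Ov4Carbo was derived in the same way with carboplatin and is labelled carboplatin resistant. Ov4Carbo4 and Ov4Carbo7 each grew from a single cell of Ov4Carbo and carry the carboplatin resistant label, so each stands for 1 clone. All 5 lines were grown in the same serum-containing medium, and the labels do not say whether drug was present when RNA was taken.

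Complement is a cascade of plasma proteases that tags cells for removal and can pierce their membranes. The C1R and C1S proteases start the classical pathway, factor B forms the C3-cleaving enzyme of the alternative pathway, and both routes converge on C3. CFI cuts activated C3. CD55 takes the C3-cleaving enzymes apart and CD59 blocks the membrane attack complex, so that cells carrying CD55 and CD59 are shielded. Acute phase proteins such as HP, which binds free haemoglobin, and SERPINA1, which inhibits neutrophil elastase, are made mainly by the liver under IL6 and IL1. Epithelial and tumour cells can make many of the same proteins.

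All levels are log2 RPKM, that is, read density per kilobase of gene and per unit of sequencing output, after the authors' normalization for gene length, GC content and distribution, so levels may be compared between genes. The median per sample was 2.77, and the lowest value in a sample lay between -8.18 and -7.68. The files give no depth, so precision is judged from the 3 replicates alone. A gene was called in a comparison when its adjusted p (limma, Benjamini-Hochberg, across all genes) was under 0.05 and its difference at least 1 log2 unit. The 9 genes were chosen with these values known, so they are described without p-values.

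Of the lineage markers, PAX8 lay between 5.85 and 6.74 and SOX17 between 6.65 and 7.76 across the 5 line means, while WT1 was low, from -5.07 to -1.52. Summed RPKM of the 13 measured epithelial markers was 903 to 1100 in the parental samples, 564 to 618 in Ov4Carbo4, 521 to 555 in Ov4Carbo, 418 to 429 in Ov4Carbo7 and 342 to 442 in Ov4Cis. Of the 13, KRT7, CDH1 and CLDN4 fell most in Ov4Cis. KRT7, a keratin, stood at -0.57 against 8.28 in the parental line. CDH1, or E-cadherin, was at -3.52 against 4.63, and CLDN4, a tight junction claudin, at -2.73 against 5.24. MSLN, FOLR1, EPCAM, MUC16 and CLDN3 were also called lower there, as were KRT8 at 4.50 against 7.09 and KRT18 at 6.32 against 7.53. PAX8 and SOX17 were not called, and WT1 was called higher, by 3.56 at a low level. Only 1 of 12 hepatocyte markers was measured, APOA1, with RPKM from 0.931 to 4.4 over all samples. Only 1 of 12 leukocyte markers was measured, CD14, at 1.11 to 1.83 RPKM in Ov4Carbo7 and 0.374 to 1.08 elsewhere. The 5 measured fibroblast markers of 9 summed to 4.42 to 14.6. The part of other cell types in the differences was not tested, and in bulk RNA fewer cells of a type and less RNA per cell cannot be told apart.

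The sample titles carry numbers in 2 separate runs, which the labels do not call a batch. Replicate 1 of Ov4Carbo and all samples of both clones belong to the first run, and all other samples to the second. Ov4Cis against the parental line and Ov4Carbo7 against Ov4Carbo4 therefore lie within 1 run, whereas each clone against the parental line crosses both, where run and line cannot be told apart. Replicate 1 of Ov4Carbo also stood apart in several of the 9 genes. Its root-mean-square difference over the 9 genes was 1.64 from the mean of Ov4Carbo7 and 2.28 from that of Ov4Carbo4, whereas replicate 2 was at 2.52 and 1.69 and replicate 3 at 2.23 and 1.75. Differences of the 9 genes from or to Ov4Carbo are therefore also given without this replicate where a call changed.

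The 9 genes differed widely among the lines and did not move as a block. The range between the highest and lowest line mean had a median of 4.60 log2 units over the 9 genes, against 0.86 over all genes. It reached 3 log2 units in 6 of the 9 genes and in 9.91% of all genes. The 9 genes were chosen with these differences known, so the wide ranges are a description and nothing is read from them. For CFB, and for HP outside Ov4Cis, the levels lay near the floor. HP had the widest range, 9.33, and CD59 the narrowest, 1.10. Ov4Carbo7 had the highest mean of the 5 lines for CFB, C3, C1S, CD55 and CD59, while Ov4Carbo4 had the lowest for CFI, C3, C1S, CD55 and CD59. These 2 clones came from the same population. Not every first or last place was clear of its neighbour: C3 in Ov4Carbo7 overlapped Ov4Cis, and CFI in Ov4Carbo4 overlapped the parental line. For CD59 Ov4Carbo4, at 3.94, overlapped Ov4Carbo, which was lower, at 3.85, without its replicate 1.

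**Figure D1:**
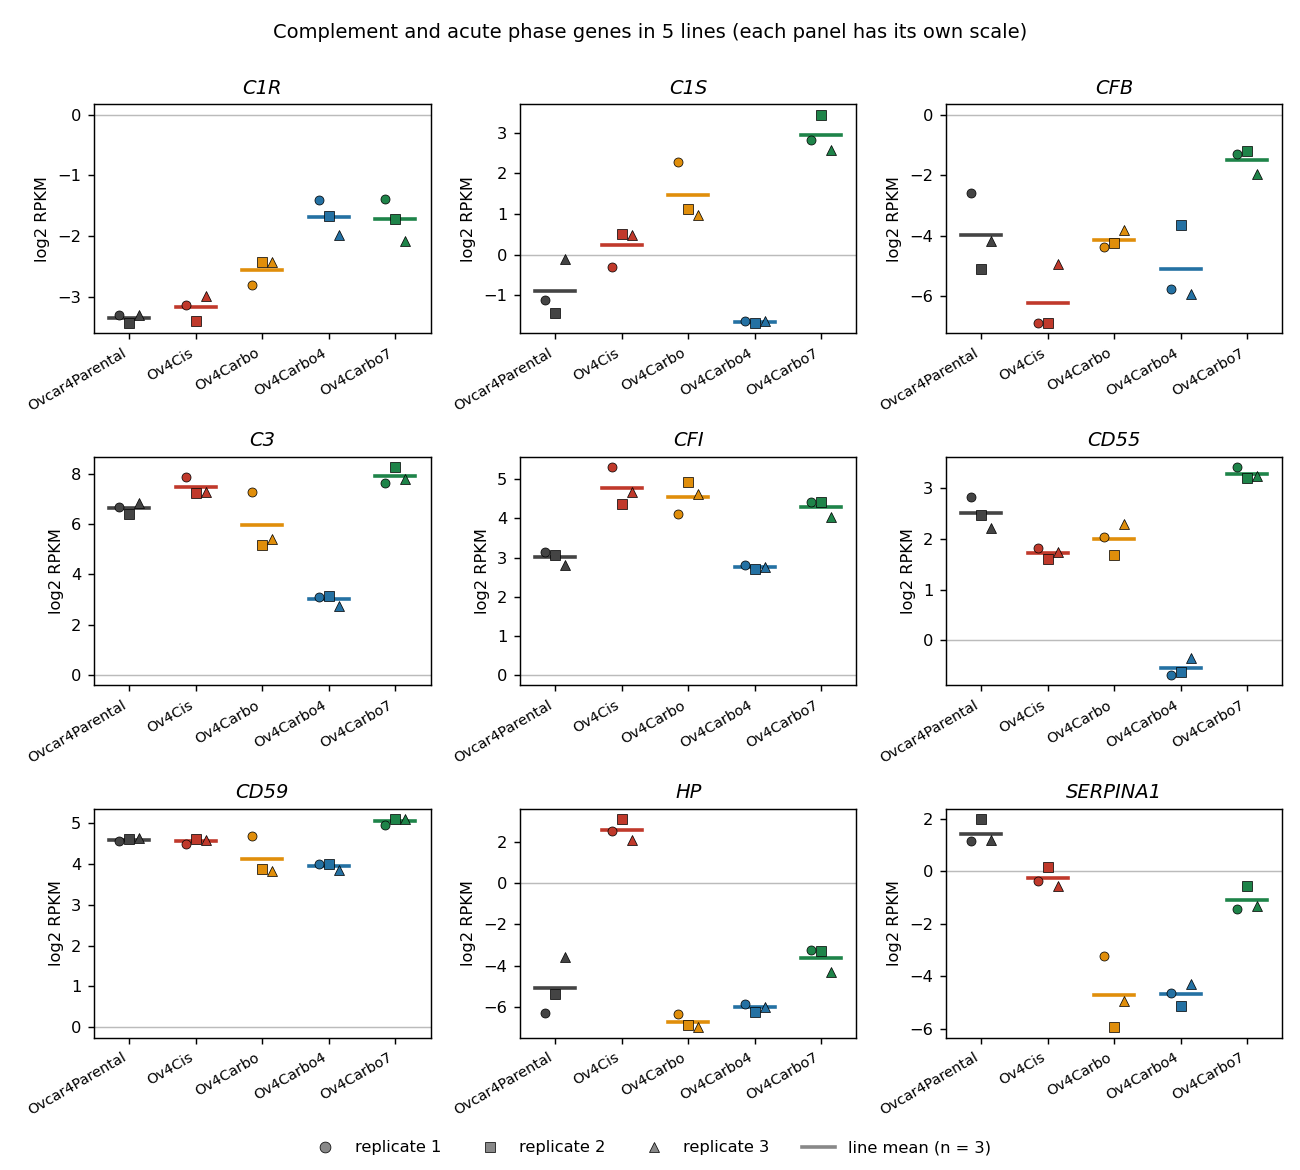
Log2 RPKM of the 9 genes in every sample, with a panel for each gene on its own vertical scale; circles, squares and triangles are replicates 1, 2 and 3, and bars are line means (n = 3). HP is high in Ov4Cis alone, and the Ov4Carbo4 samples lie below all others for C3 and CD55.

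The 250 bases upstream of the RefSeq start were available for 6 of the 9 genes (GRCh38.p14, 11 windows because C1R, CD59 and SERPINA1 have several starts). C1S, C3 and HP have no entry. CFB and CD55 are shown because the clones differed by 12.4-fold and 14.4-fold, CD59 because they differed by 2.14-fold, and C1R because its clone means differed by only 1.03-fold. Where a gene has several starts, the one farthest upstream is shown. Capitals mark matches to the searched motifs.
CFB, chr6:31945845-31946094, plus strand: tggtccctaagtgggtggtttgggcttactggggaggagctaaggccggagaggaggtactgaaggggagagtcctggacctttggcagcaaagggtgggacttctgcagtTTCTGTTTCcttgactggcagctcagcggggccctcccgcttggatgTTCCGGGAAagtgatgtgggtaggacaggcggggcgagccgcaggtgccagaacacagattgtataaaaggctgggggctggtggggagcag
CD55, chr1:207321428-207321677, plus strand: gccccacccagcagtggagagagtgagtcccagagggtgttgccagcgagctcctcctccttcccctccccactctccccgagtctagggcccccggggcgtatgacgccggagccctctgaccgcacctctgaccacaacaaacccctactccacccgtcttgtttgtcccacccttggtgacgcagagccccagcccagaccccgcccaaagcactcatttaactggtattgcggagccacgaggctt
CD59, chr11:33736480-33736729, minus strand: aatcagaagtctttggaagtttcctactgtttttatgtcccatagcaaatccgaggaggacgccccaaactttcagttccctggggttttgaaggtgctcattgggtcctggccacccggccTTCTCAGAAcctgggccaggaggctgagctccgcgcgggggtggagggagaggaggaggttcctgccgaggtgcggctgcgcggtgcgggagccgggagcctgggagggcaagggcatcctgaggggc
C1R, chr12:7092446-7092695, minus strand: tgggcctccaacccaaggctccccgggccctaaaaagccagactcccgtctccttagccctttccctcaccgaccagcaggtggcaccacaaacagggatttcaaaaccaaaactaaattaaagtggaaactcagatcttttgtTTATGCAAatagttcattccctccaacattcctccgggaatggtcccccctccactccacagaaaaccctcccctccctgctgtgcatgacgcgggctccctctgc

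Motifs of factors known to act on acute phase genes were searched on both strands: STAT (TTCNNNGAA), C/EBP (TTGCNNAA), NF-kB (GGANTTTCC), the interferon-stimulated response element (GAAANNGAA) and HNF1 (GTTAATNAT). The CFB window held TTCCGGGAA, a STAT match, 92 to 84 bases before the start, and TTCTGTTTC, the reverse complement of an interferon-stimulated response element, 139 to 131 bases before it. In the CD59 window a STAT match, TTCTCAGAA, lay 128 to 120 bases before the start. A C/EBP match, TTATGCAA, lay 106 to 99 bases before the upstream C1R start, and its downstream start had a STAT match, TTCCTGGAA, at 86 to 78 bases. The CD55 window held none of the motifs. Of the 11 windows, 4 held a STAT match, 3 a C/EBP match, 1 an interferon-stimulated response element and 0 an NF-kB or HNF1 match. Among all 35116 windows of the same length the shares were 6.57%, 9.05%, 6.88%, 1.45% and 0.723% in that order. Windows of the same gene can overlap, and the same CD59 match was counted in 2 of them. A match is a description of these letters, not a binding site. Only exact matches to each pattern were searched, so a count of 0 does not show that a site is absent.

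Of the proteases that open the classical pathway, C1S varied strongly and C1R did not vary with it. C1S (ENSG00000182326, chromosome 12) stood at -1.11, -1.45 and -0.12 in the parental replicates and at -0.31, 0.51 and 0.47 in Ov4Cis. It reached 2.29, 1.13 and 0.98 in Ov4Carbo, -1.63, -1.68 and -1.64 in Ov4Carbo4, and 2.82, 3.44 and 2.58 in Ov4Carbo7. The Ov4Carbo7 samples lay above all others, the Ov4Carbo4 samples below all others, and only the parental and Ov4Cis samples overlapped among neighbours in the order. The mean of Ov4Carbo7 exceeded that of Ov4Carbo4 by 4.60 ± 0.39 (difference in log2 RPKM ± SE), 24.3-fold, and that of the parental line by 3.84. Ov4Carbo exceeded the parental line by 2.36, and by 1.95 without its replicate 1.

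C1R (ENSG00000159403, chromosome 12) was low everywhere, with line means ± SD (n = 3) of -3.34 ± 0.08 in the parental line, -3.17 ± 0.21 in Ov4Cis and -2.56 ± 0.22 in Ov4Carbo. Those of the clones were -1.68 ± 0.29 in Ov4Carbo4 and -1.72 ± 0.35 in Ov4Carbo7. Both clones were thus higher than the parental line, by 1.66 and 1.62 (SE 0.19), with no overlap of replicates. On a log2(RPKM + 1) scale, which understates differences of low genes, those differences were 0.26 and 0.25. Between the clones C1R differed by -0.04 and its replicates overlapped, whereas C1S, whose product works in the same complex, had its largest difference there. C1RL, a relative near both genes on chromosome 12, had line means between 1.87 and 2.37 and was called in no comparison with the parental line or between the clones. It was 0.50 higher in Ov4Carbo7 than in Ov4Carbo4, without overlap but under the limit of 1 log2 unit.

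**Figure D2:**
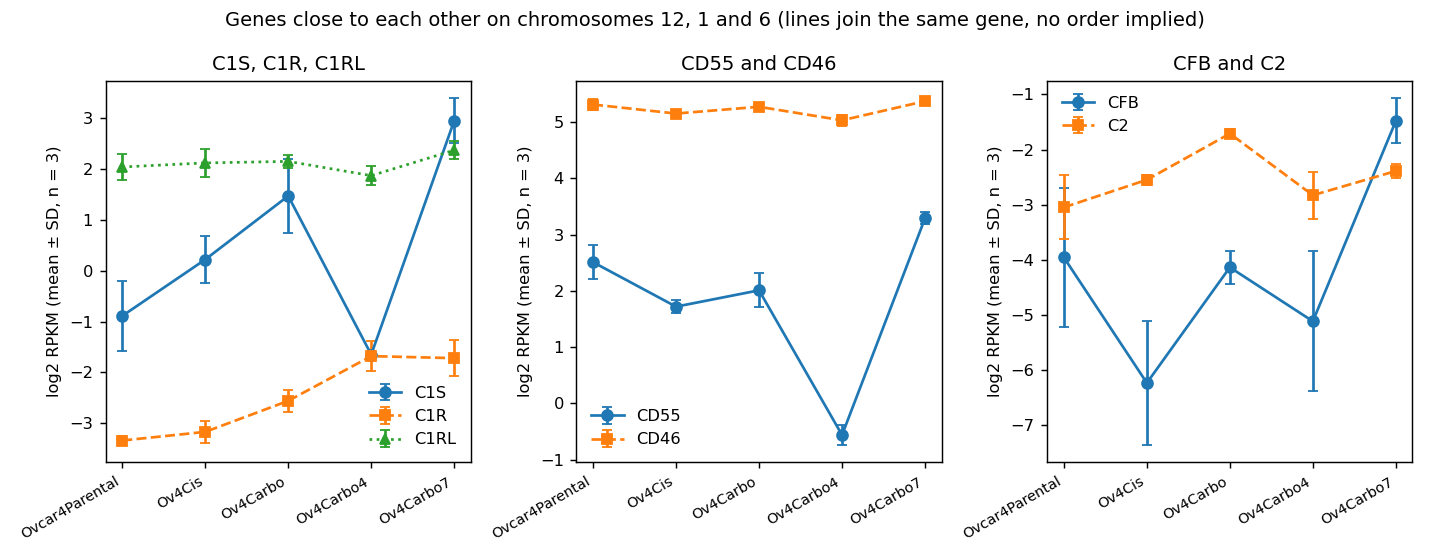
Line means ± SD (n = 3, log2 RPKM) of C1S, C1R and C1RL on chromosome 12, of CD55 and CD46 on chromosome 1, and of CFB and C2 on chromosome 6; lines join values of the same gene and imply no order. C1S and CD55 drop in Ov4Carbo4 and peak in Ov4Carbo7. C1RL and CD46 vary far less, with their lowest and highest means in the same lines.

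C3, the protein on which all complement pathways converge, was the most abundant of the 9 genes in 4 of the 5 lines and the gene that set the clones farthest apart. C3 (ENSG00000125730, chromosome 19) stood at 6.66, 6.41 and 6.82 in the parental replicates, above 96.9% of genes, and at 7.87, 7.24 and 7.27 in Ov4Cis. It was 7.27, 5.17 and 5.40 in Ov4Carbo, 3.11, 3.14 and 2.76 in Ov4Carbo4, and 7.64, 8.26 and 7.80 in Ov4Carbo7. Ov4Carbo4 alone was near the middle of all genes, at the percentile 53.7, while Ov4Carbo7 was at 99.5. The difference of Ov4Carbo4 from the parental line was -3.63 ± 0.43 (12.4-fold lower), and Ov4Carbo7 exceeded Ov4Carbo4 by 4.90 ± 0.43 (29.8-fold), with no overlap in either comparison.

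The higher C3 of Ov4Carbo7 against the parental line, 1.27, rested on less. A term for the title runs, which is estimated from Ov4Carbo alone, turned it to -0.71 and turned that of CD59 from 0.45 to -0.37. The same term left the clones' difference as it was and moved further differences from the parental line by over 1.5 times. With it C3, C1S, CD59 and HP in Ov4Carbo4 were at -5.61, -1.99, -1.46 and -1.51, and CFI there turned from -0.25 to 0.42. CFI, HP and SERPINA1 in Ov4Carbo7 were at 1.95, 0.89 and -4.76. In Ov4Carbo, replicate 1 was near the Ov4Cis level and the other replicates were over 1 log2 unit below the parental ones. The Ov4Carbo difference from the parental line was -0.68 with overlapping replicates, and -1.34 without replicate 1. Ov4Cis exceeded the parental line by 0.83 without overlap, under the limit of 1 for a call.

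CFB (ENSG00000243649, chromosome 6), which pairs with C3 in the alternative pathway, was near the bottom of the scale. Its line means ± SD were -1.48 ± 0.41 in Ov4Carbo7 and -5.12 ± 1.27 in Ov4Carbo4, against -4.14 ± 0.30 in Ov4Carbo, -3.96 ± 1.27 in the parental line and -6.24 ± 1.12 in Ov4Cis (n = 3). The Ov4Carbo7 samples, between -1.96 and -1.20, lay above all other samples, and all other neighbours in the order overlapped. Ov4Carbo7 exceeded Ov4Carbo4 by 3.63 ± 0.72, but by only 0.40 on the log2(RPKM + 1) scale. At these levels the size of a fold depends on how the authors treated few reads. C2, beside CFB in the genome and a protease of the same family, was also low, from -3.05 in the parental line to -1.71 in Ov4Carbo, and its clone means of -2.83 and -2.39 did not differ by a call.

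Among the regulators, CD55 followed the order of the clones closely while CD59 and CFI moved less. CD55 (ENSG00000196352, chromosome 1), the decay-accelerating factor, stood at 2.83, 2.48 and 2.22 in the parental replicates, 1.82, 1.60 and 1.75 in Ov4Cis, and 2.04, 1.69 and 2.29 in Ov4Carbo. It was -0.69, -0.62 and -0.36 in Ov4Carbo4 and 3.42, 3.20 and 3.25 in Ov4Carbo7. The Ov4Carbo4 samples lay below and the Ov4Carbo7 samples above those of every other line. The difference from the parental line was -3.06 ± 0.17 in Ov4Carbo4 (8.36-fold lower) and 0.78 in Ov4Carbo7, and the clones differed by 3.85 ± 0.17 (14.4-fold). CD46, a membrane cofactor for CFI encoded in the same cluster, had line means from 5.03 to 5.37 and was called in none of these comparisons. Its clone difference was in the same direction, 0.34 without overlap.

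CD59 (ENSG00000085063, chromosome 11), the inhibitor of the membrane attack complex, kept a high level in every line. Its means ± SD were 5.03 ± 0.08 in Ov4Carbo7, 4.59 ± 0.03 in the parental line, 4.55 ± 0.06 in Ov4Cis, 4.12 ± 0.47 in Ov4Carbo and 3.94 ± 0.08 in Ov4Carbo4 (n = 3). The wide SD of Ov4Carbo came from replicate 1 at 4.67 against 3.87 and 3.83. Replicates of the clones did not overlap, and their difference was 1.10 ± 0.17 (2.14-fold). CD59 thus had the narrowest range of line means of the 9 genes, though a wider one than CD46.

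CFI (ENSG00000205403, chromosome 4), the protease that inactivates C3b, divided the lines differently. Ov4Cis at 4.79 ± 0.48, Ov4Carbo at 4.56 ± 0.41 and Ov4Carbo7 at 4.29 ± 0.23 formed a higher set in which neighbours overlapped. The parental line at 3.01 ± 0.18 and Ov4Carbo4 at 2.76 ± 0.05 overlapped at the lower level. The 3 higher lines exceeded the parental line by 1.78, 1.55 and 1.28 (SE 0.24), and by 1.77 for Ov4Carbo without its replicate 1. CFI was the only regulator among the 9 genes that Ov4Cis, Ov4Carbo and Ov4Carbo7 all carried at more than 1 log2 unit above the parental level.

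HP and SERPINA1, both liver plasma proteins, ran in opposite ways in Ov4Cis. HP (ENSG00000257017, chromosome 16) stood at 2.55, 3.10 and 2.10 in Ov4Cis and at -6.31, -5.38 and -3.56 in the parental replicates. It was -6.37, -6.88 and -7.00 in Ov4Carbo, -5.84, -6.23 and -6.00 in Ov4Carbo4, and -3.24, -3.30 and -4.32 in Ov4Carbo7. All 12 samples outside Ov4Cis were below -3, near the floor of the table, and the Ov4Cis samples were all above 2. The difference of Ov4Cis from the parental line was 7.66 ± 0.55 in log2 RPKM and 2.75 on the log2(RPKM + 1) scale. Differences of HP among the other lines concern almost no reads: that of Ov4Carbo, -1.67, was -0.91 without parental replicate 3, and that of Ov4Carbo7, 1.46, was 0.85 without parental replicate 1 and 2.22 without replicate 3. The high HP of Ov4Cis went with low KRT7, CDH1 and CLDN4 in the same samples, those of the 13 measured epithelial markers that fell most. The part of these markers in the HP difference was not tested. HP has a near-identical neighbour, HPR, which is not analysed here, so reads that fit both cannot be assigned with certainty.

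SERPINA1 (ENSG00000197249, chromosome 14) was highest in the parental line, at 1.14, 1.98 and 1.20. Ov4Cis had -0.37, 0.17 and -0.55 and Ov4Carbo7 had -1.43, -0.57 and -1.32. Ov4Carbo at -3.23, -5.94 and -4.95 and Ov4Carbo4 at -4.63, -5.11 and -4.27 overlapped near the floor. No resistant line overlapped the parental samples. Its difference from the parental line was -1.69 in Ov4Cis and -2.55 in Ov4Carbo7, against -6.15 in Ov4Carbo (-6.89 without its replicate 1) and -6.11 in Ov4Carbo4 (SE 0.54). On the log2(RPKM + 1) scale it was -1.01, -1.34, -1.83 and -1.85 in the same order. SERPINA1 was the only gene of the 9 that was past the call rule in the same direction in all 4 resistant lines. Its Ov4Cis value was no longer past it without parental replicate 2 (-1.42) or without Ov4Cis replicate 1 (-1.63) or 3 (-1.54).

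Counted over the 9 genes, against the parental line, 5 were past the call rule in Ov4Cis, 3 higher and 2 lower, where 15.9% of all genes were called (8.46% higher, 7.41% lower). The higher ones were C1S, CFI and HP, and the lower ones CFB and SERPINA1. Replicates of C1S and CFB overlapped there, and the CFB difference of -2.28 was -0.09 on the log2(RPKM + 1) scale. In Ov4Carbo 2 were higher and 2 lower, with 12.7% of all genes called (5.76% higher, 6.93% lower). In Ov4Carbo4 1 was higher and 3 were lower, with 15.1% called (7.43% higher, 7.70% lower), and in Ov4Carbo7 6 were higher and 1 lower, with 17.0% called (9.26% higher, 7.75% lower). These 4 comparisons share the parental samples. Replicates of the 9 genes did not overlap in 5 for Ov4Cis (53.4% of all genes), 5 for Ov4Carbo (38.4%), 6 for Ov4Carbo4 (58.1%) and 8 for Ov4Carbo7 (56.5%). These are not always the genes past the rule. In Ov4Cis they were CFI, C3, CD55, HP and SERPINA1, and in Ov4Carbo7 HP was past the rule with overlapping replicates. Between Ov4Carbo7 and Ov4Carbo4 8 of the 9 were past the rule and did not overlap, all higher in Ov4Carbo7. Of all genes 20.9% were called there (11.1% higher, 9.86% lower) and 67.3% did not overlap. Since these values chose the genes, the counts are a description and nothing is read from them. The Ov4Cis count was 3 when any of parental replicates 1 and 2 or Ov4Cis replicates 1, 2 and 3 was left out, where 2 of CFB, C1S and SERPINA1 left it. The Ov4Carbo7 count was 4 without parental replicate 2, where CFB, C3 and HP left it. The clone count was 8 in every fit that left out a replicate, and 5 on the log2(RPKM + 1) scale, where CFB, HP and SERPINA1 no longer reached 1 log2 unit.

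**Figure D3:**
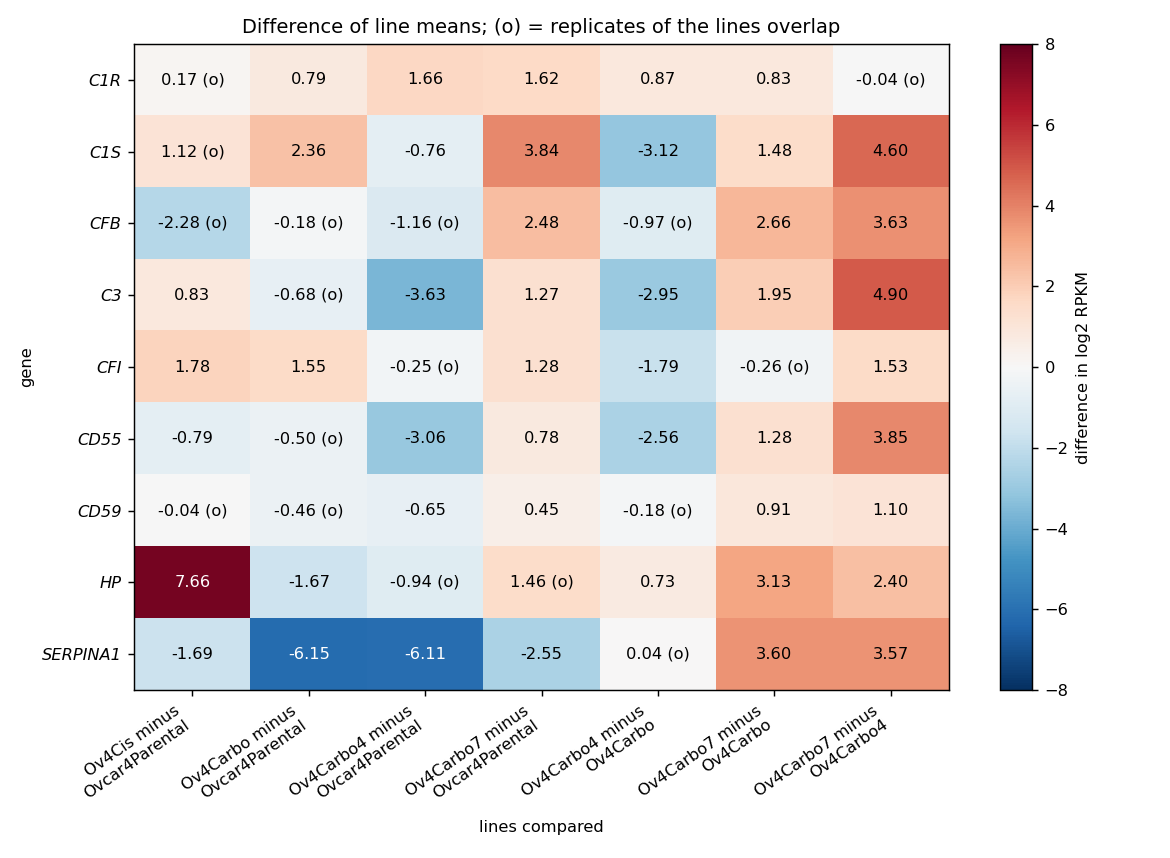
Differences of line means (log2 RPKM) for the 9 genes in rows and 7 comparisons in columns; red is higher and blue lower in the line named first, and (o) marks comparisons whose replicates overlap. The last column, Ov4Carbo7 minus Ov4Carbo4, runs from -0.04 for C1R to 4.90 for C3.

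Set beside their source population, the clones lay on opposite sides for some genes. The difference of C3 from Ov4Carbo was -2.95 in Ov4Carbo4 and 1.95 in Ov4Carbo7, or -2.28 and 2.62 without Ov4Carbo replicate 1. For C1S these differences were -3.12 and 1.48, or -2.71 and 1.89 without it, and for CD55 -2.56 and 1.28. CFI was near the population in Ov4Carbo7 (-0.26, overlapping) and lower in Ov4Carbo4 (-1.79). For SERPINA1 the reverse held: Ov4Carbo4 was near the population (0.04, overlapping, and 0.77 without replicate 1) and Ov4Carbo7 was higher by 3.60, or 4.34 without replicate 1. With the term for the title runs, C3 and C1S in Ov4Carbo7 were only 0.63 and 0.66 above Ov4Carbo, and SERPINA1 was at -1.44 in Ov4Carbo4 and 2.13 in Ov4Carbo7. Of the 9 genes, 4 were past the call rule in Ov4Carbo4, all lower, where 14.2% of all genes were called (7.58% higher, 6.64% lower). In Ov4Carbo7 6 were past it, all higher, where 13.3% were called (7.72% higher, 5.62% lower), and 7 without Ov4Carbo replicate 1, where CD59 reached 1.18. Ov4Cis against Ov4Carbo had 5, of which 3 were higher (HP, SERPINA1 and, with overlapping replicates, C3) and 2 lower, where 13.8% were called (7.88% higher, 5.90% lower). The lower ones were CFB and C1S, and C1S was at -0.83 without Ov4Carbo replicate 1. These 3 comparisons share the Ov4Carbo samples.

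Over the 15 samples C3 correlated with CD55 at r = 0.88 and with CD59 at r = 0.86 (Pearson), and over the 5 line means at 0.92 and 0.87. C1R correlated with SERPINA1 at r = -0.62 and with C1S at 0.22. The points are 3 replicates of each of 5 lines, so these values describe 5 lines and are given without a test. The genes outside the 9 with the closest profiles, among 4466 variable genes, were FUCA2, a fucosidase, and CXCL5, a neutrophil chemokine, for C3 (both r = 0.980). KLF8 (0.981) was closest to CD55, RASEF (0.982) to CD59, PLAAT3 (0.958) to CFI, LINC02302 (0.954) to HP and SIRPA (0.973) to SERPINA1. CXCL5 spanned a wider range than FUCA2, from -1.76 in Ov4Carbo4 to 5.93 in Ov4Carbo7. For C1S the closest were FTH1P11 (0.973) and FTH1P10 (0.971), pseudogenes of ferritin heavy chain whose reads cannot be told with certainty from those of FTH1. CFB and C1R were too low in every line for this comparison.

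The other complement genes were then tested in the same fit, 16 measured of 58 listed: other components, regulators and receptors. The list was chosen with earlier results of these data known. Its shares and adjusted p-values are therefore a description and not an independent test. In Ov4Cis 6 of the 16 were called against the parental line, 5 higher and 1 lower, 37.5% against 15.9% of all genes, with a median difference of 0.53 against 0.04. CFP, or properdin, which stabilizes the alternative C3-cleaving enzyme, rose from -3.97 ± 0.39 to 1.29 ± 0.87, a difference of 5.26 (SE 0.56, limma adjusted p = 1.23e-05) that was 1.73 on the log2(RPKM + 1) scale. CLU, or clusterin, a fluid-phase inhibitor of the terminal complex, rose by 1.77 (adjusted p = 0.000411). F3, tissue factor, which starts coagulation and was listed among the regulators, fell by 2.89 (adjusted p = 1.92e-06). COLEC12 and ITGAX were also called higher. COLEC12 differed by 1.02 and lost the call without parental replicate 2 (0.89) or Ov4Cis replicate 2 (0.72).

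In Ov4Carbo 7 of the 16 were called, 4 higher and 3 lower, where 12.7% of all genes were called, with a median difference of 0.04. F3 fell by 1.58 (adjusted p = 0.000482) and ITGB2, a subunit of complement receptors on leukocytes, by 1.91 (adjusted p = 0.00391, but 0.0561 when only these lines were fitted). CFD, or factor D, which cuts factor B, rose by 1.11 (adjusted p = 0.00119), a size that was 0.99 without Ov4Carbo replicate 2 and 0.96 without replicate 3. CLU rose by 1.08 (adjusted p = 0.0132), but by 0.82 without parental replicate 2 and 0.88 without Ov4Carbo replicate 1, where the call was lost, as it was when only these lines were fitted (adjusted p = 0.0714). C2 rose by 1.33 at a low level (adjusted p = 0.00184).

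In Ov4Carbo4 6 were called, 2 higher and 4 lower (15.1% of all genes), with a median of -0.11. ITGB2 fell by 3.04 (adjusted p = 0.000106), and F3 by 1.30 (adjusted p = 0.00129). SERPING1, the inhibitor of C1R and C1S, fell by 1.13 (adjusted p = 0.00435), a difference that was -0.84 without parental replicate 1 and lost its call with the term for the title runs (-1.11, adjusted p = 0.115). In Ov4Carbo7 4 were called, 3 higher and 1 lower (17.0% of all genes), with a median of 0.34. F3 fell by 1.35 (adjusted p = 0.000858). F3 was called lower in each of the 4 resistant lines.

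Between the clones, 6 of the 16 other complement genes were called, 5 higher and 1 lower in Ov4Carbo7 (37.5%, against 20.9% of all genes), with a median of 0.43 against -0.05. ITGB2 was 3.11 higher (adjusted p = 5.5e-05) and SERPING1 1.49 higher (adjusted p = 0.000458). CLU was 1.14 higher (adjusted p = 0.00591), and 0.88 without Ov4Carbo7 replicate 2, where the call was lost. CFP and C5 were also called, with differences of 2.23 and -1.14, both at line means under log2 RPKM 0. They fell outside the rule for named genes and were chosen after their values were seen.

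The other acute phase proteins and the cytokine pathway that drives them made a second group, 54 measured of 88 listed. This group too was chosen with earlier results of these data known, so its shares and adjusted p-values, also those between the clones, are a description. Against the parental line 26 were called in Ov4Carbo4 (3 higher, 23 lower) and 13 in Ov4Carbo7 (11 higher, 2 lower), that is 48.1% and 24.1% against 15.1% and 17.0% of all genes, with median differences of -0.47 and 0.20 against 0.07 and 0.02 over all genes. The number was 16 for Ov4Cis (9 higher, 7 lower, median 0.17) and 11 for Ov4Carbo (2 higher, 9 lower, median -0.20), that is 29.6% and 20.4% against 15.9% and 12.7% of all genes. CP, or ceruloplasmin, a copper-carrying plasma protein, rose by 2.41 in Ov4Cis and by 2.67 in Ov4Carbo7 and fell by 3.74 in Ov4Carbo4 (adjusted p = 1.2e-05, 5.91e-06 and 4.59e-07). PTX3, a pentraxin that binds complement C1q, rose in all 4 resistant lines, by 4.03 in Ov4Cis (adjusted p = 4.23e-07), by 1.54 in Ov4Carbo (0.00173) and by 2.98 and 2.76 in the clones (8.11e-06 and 1.22e-05).

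Further acute phase transcripts fell in Ov4Carbo4. LCN2, or lipocalin, an iron-withholding protein, fell by 3.97 (adjusted p = 0.00254) and SOD2, the mitochondrial superoxide dismutase, by 2.40 (adjusted p = 0.00122). SOD2 rose by 1.99 in Ov4Carbo7 (adjusted p = 0.00377). With the term for the title runs these differences were -7.68 for LCN2 and -3.82 and 0.58 for SOD2, the last no longer called, and that of CP in Ov4Carbo7 was 1.47. IL6, the main cytokine of the response, fell by 6.07 in Ov4Carbo4 (SE 0.60, adjusted p = 8.95e-06), from 2.81 ± 0.98 to -3.26 ± 0.92, and by 2.80 in Ov4Carbo (adjusted p = 0.00378). The Ov4Carbo4 difference was -2.87 on the log2(RPKM + 1) scale. IL6 was also called lower in Ov4Cis, by 1.97 (adjusted p = 0.0219). CEBPD, a transcription factor of acute phase genes, rose by 2.34 in Ov4Carbo7 (adjusted p = 0.000116). CNTFR, a receptor subunit for a cytokine of the IL6 family, rose by 6.41 in Ov4Carbo4 (adjusted p = 4.17e-08). That rise was 2.56 when 1 was added to RPKM before the logarithm. In Ov4Cis NFKBIZ, a nuclear cofactor of NF-kB, rose by 1.83 (adjusted p = 0.000513) while TNF fell by 3.16 (adjusted p = 0.000163) and IL1R1 by 2.28 (adjusted p = 2.24e-05). Neither fall was particular to Ov4Cis. TNF fell by 3.55 in Ov4Carbo4 (adjusted p = 7.5e-05) and by 1.46 in Ov4Carbo7 (adjusted p = 0.0222). The Ov4Carbo7 call was lost under several settings. IL1R1 fell by 2.98 in Ov4Carbo (adjusted p = 5.31e-06), and its mean was 2.46 in Ov4Carbo4 against 5.74 in the parental line.

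Between the clones 29 of the 54 were called, 26 higher and 3 lower in Ov4Carbo7 (48.1% higher, against 11.1% of all genes), with a median of 0.96. Of the 10 other acute phase proteins measured, 7 were higher and 0 lower, with a median of 3.46. CP was 6.40 higher (SE 0.26, adjusted p = 6.06e-09), SOD2 4.40 higher (adjusted p = 8.19e-06) and LCN2 3.69 higher (adjusted p = 0.00283). LBP, SAA1, SAA2 and FTH1 were the rest of the 7. The first 3 were below log2 RPKM 0 in both clones, and SAA1 and SAA2 share near-identical sequence, so that their reads cannot be divided with certainty. FTH1 sat at 10.26 in all Ov4Carbo7 samples, a top rank that the normalization holds at 1 value. RBP4, a protein that usually falls in the acute phase, was also higher in Ov4Carbo7, by 4.45 (adjusted p = 5.67e-06), but its line means of -0.40 and -4.86 were low and differed by 0.77 on the log2(RPKM + 1) scale. APOA1, the other such protein measured, was not called. LBP, SAA1, SAA2, FTH1, RBP4 and APOA1 fell outside the naming rule here and were chosen after their values were seen.

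Of the 42 cytokine pathway genes measured, 18 were higher and 3 lower in Ov4Carbo7 than in Ov4Carbo4, with a median of 0.81. IL6 was 4.71 higher (adjusted p = 4.13e-05), CEBPD 4.69 (adjusted p = 4.05e-07) and NFKBIZ 3.64 (adjusted p = 1.74e-06), and CNTFR stood at -4.88 against 2.40, a difference of -7.28 (SE 0.32, adjusted p = 1.39e-08). Genes outside the naming rule, chosen after their values were seen, concern other steps of the pathway, and not all were higher. OSMR, the oncostatin M receptor, was 3.41 higher (adjusted p = 4.45e-07), SOCS3, a feedback inhibitor induced by STAT3, 1.70 higher (adjusted p = 1.6e-06), and JAK1, the receptor-bound kinase, 1.23 higher (adjusted p = 0.000211). STAT3 itself differed by 0.82 and the shared receptor subunit IL6ST by 0.72, both under the limit for a call. JAK2 and LIFR differed by 0.13 and 0.24 and were not called. IL11 was 1.41 lower (adjusted p = 0.0102) and TNFRSF1B 1.09 lower (adjusted p = 0.00661), both at line means under log2 RPKM 0. Marker genes differed between the clones too. CD14, the leukocyte marker, was 1.58 higher in Ov4Carbo7 (adjusted p = 0.000249). Of the 13 epithelial markers, 1 was higher (FOLR1, 2.01) and 7 were lower, among them MUC16 (-4.47), EPCAM (-2.22), CLDN4 (-1.92) and CDH1 (-1.81). Of the 5 fibroblast markers 2 were higher, LUM (4.29) and THY1 (4.01), both at line means under log2 RPKM 0. Their summed RPKM was 7.54 to 9.44 in Ov4Carbo7 and 11.5 to 14.6 in Ov4Carbo4. The part of these markers in the differences was not tested.

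**Figure D4:**
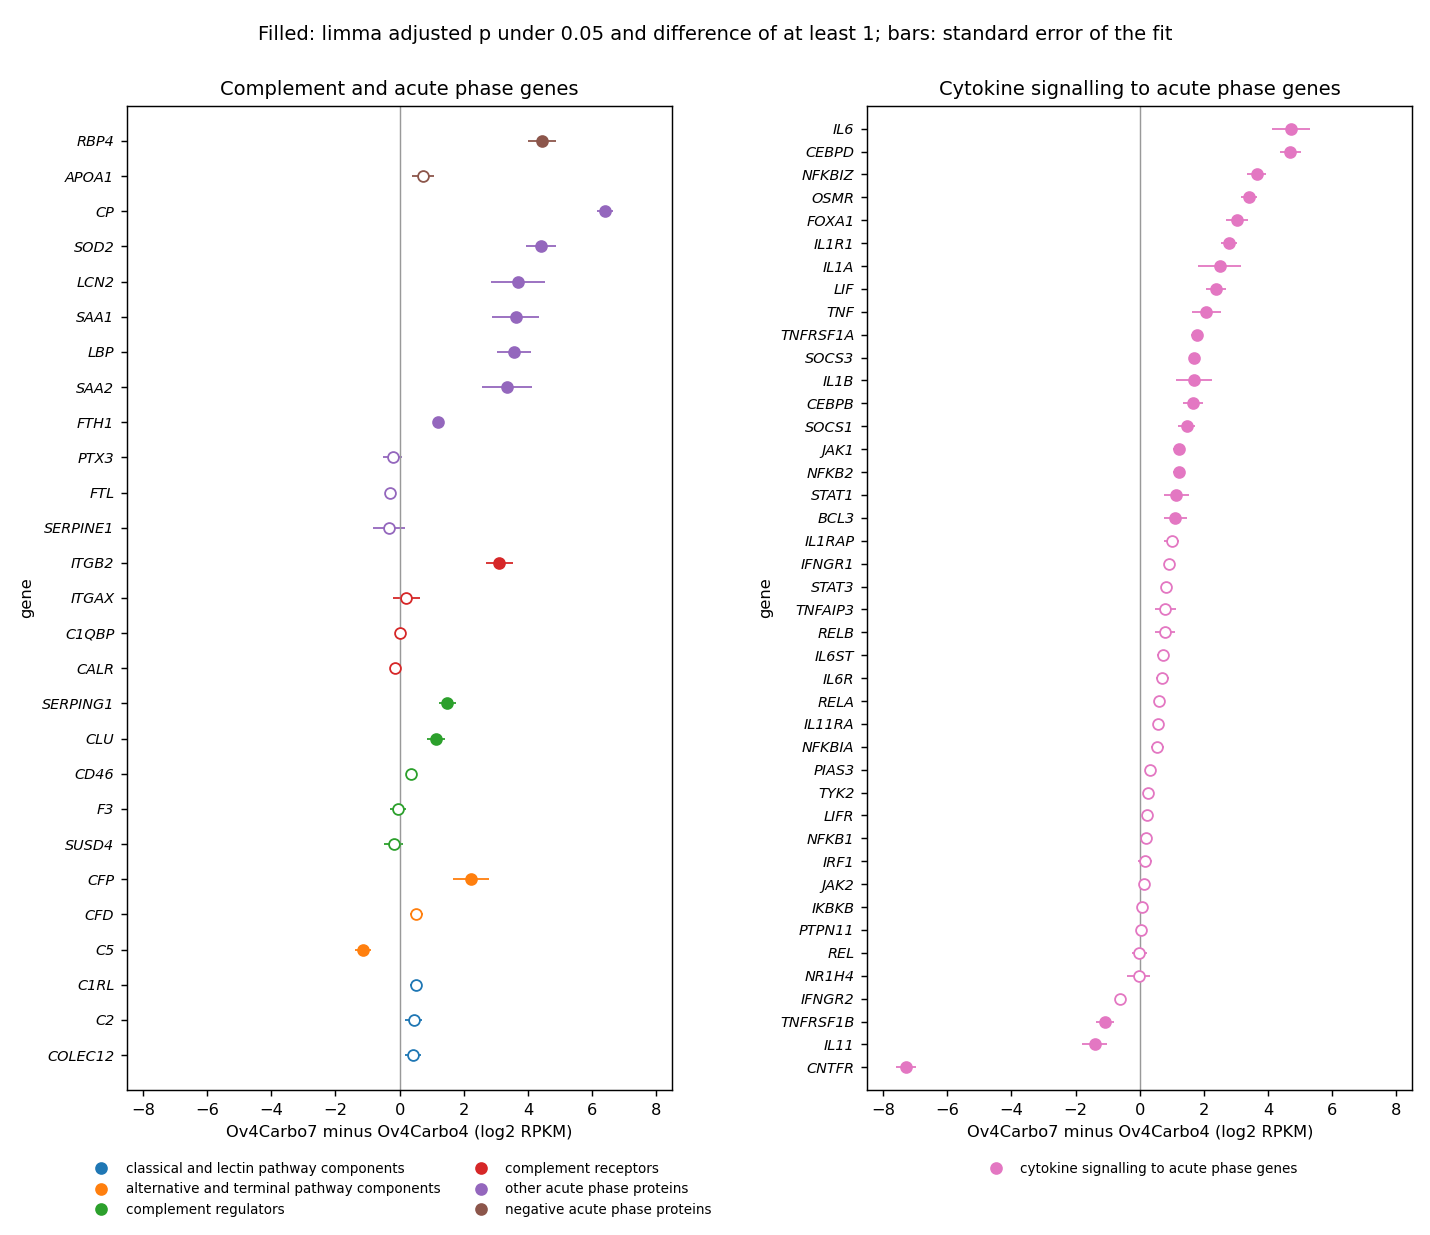
Differences of Ov4Carbo7 from Ov4Carbo4 (log2 RPKM ± SE of the limma fit) for the other complement genes (15 of 16 drawn) and acute phase genes on the left and the cytokine pathway genes on the right; filled points have an adjusted p under 0.05 and a difference of at least 1. Most filled points lie to the right, with CP at 6.40 and CNTFR at -7.28 on the far left.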

How the data were processed

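Libraries were made by polyA capture from RNA of cultured cells, per the labels' protocols. The authors deposited 1 table of log2 RPKM after conditional quantile normalization (cqn), as its name and header state; the threshold its name mentions is not given in the sources used here. BWA 0.7.15-r1140, HTSeq and the build hg19 (GRCh37) appear in the submitters' processing notes, with no roles given. Symbols matched 16448 of 16604 genes by identifier and 16499 after names of GENCODE release 29 were added. Base 2 was checked on the values: read with base 2, they summed to 1.555 to 1.647 times the expected RPKM total, and read with base e to 9.034 to 9.971 times. Quantile normalization makes total RNA content not measurable here.

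A linear model with a coefficient per line was fitted to the full table by limma 3.58.1 under R 4.3.3 (eBayes, two-sided, all 15 samples; tested on simulated data), with Benjamini-Hochberg adjustment over all genes per comparison. Standard errors come from this fit. The 9 genes and the gene and marker lists were chosen with earlier results of these data known. From the lists, named genes were called, did not overlap between the lines' replicates and reached a mean of log2 RPKM 1 in the higher line, at most 3 rises and 3 falls per list and comparison; C1RL, C2 and CD46 were reference points. Of the other complement genes, 1 counts in the totals but is not reported here by itself. Profiles were compared among genes whose highest line mean and range of line means were at least 1, leaving out chromosome Y. Promoter windows came from RefSeq on GRCh38.p14, a build other than the authors', and were used for sequence only. Alternatives were a filter at mean log2 RPKM 1, log2(RPKM + 1), median centring, a variance trend, a replicate block, a title-run term, a fit to the compared lines alone, an adjusted p under 0.01 and leaving out each replicate. Plots used matplotlib 3.10.9 and pandas 2.3.3 under Python 3.11.15.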

Additional observations from a re-analysis of the deposited data

Results flagged for a closer look

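For 4 genes the 2 clones from Ov4Carbo lay on opposite sides of the parental line, with every Ov4Carbo7 sample above and every Ov4Carbo4 sample below all parental samples. The distance between the clones was 4.90 for C3 (Ov4Carbo7 at 1.27 above, Ov4Carbo4 at -3.63), 4.60 for C1S (3.84 and -0.76), 3.85 for CD55 (0.78 and -3.06) and 1.10 for CD59 (0.45 and -0.65), all in log2 RPKM. With a term for the title runs Ov4Carbo7 was below the parental line for C3 (-0.71) and CD59 (-0.37), so that the clones were on the same side for these 2 genes. HP was on opposite sides in the 2 selected populations, which were 9.33 apart (Ov4Cis at 7.66, Ov4Carbo at -1.67). The Ov4Carbo difference lies near the floor, and was -0.04 on the log2(RPKM + 1) scale and -0.91 without parental replicate 3. Because these genes were chosen with the values known, these differences are a description, and they were not tested on data independent of that choice.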

How the results depend on the processing

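Over 63 differences of the 9 genes, 1297 of 1351 values under other settings moved by less than the spread between replicates, 53 moved by more, 31 of them on the log2(RPKM + 1) scale, and 1 that was past the call rule changed sign: C3 in Ov4Carbo7 against the parental line was -0.71 with a term for the title runs. The change of sign of CD59 in the same comparison, which was not past the rule, is among the 53. When genes under a mean log2 RPKM of 1 were left out, called other complement genes numbered 3 in Ov4Cis, 4 in Ov4Carbo and 2 in Ov4Carbo7. Under the same filter 16 acute phase and cytokine genes were called between the clones, 17 in Ov4Carbo4, 7 in Ov4Cis and 4 in Ov4Carbo. Of the 9 genes, the filter removed CFB, C1R, C1S, HP and SERPINA1, so these were not counted and did not fail the rule. It kept CFI, C3, CD55 and CD59, and all 4 were past the rule between the clones. Against the parental line the selected populations each had 1 gene past it, and the clones each had 2. Ov4Carbo7 against Ov4Carbo had 2. The share of all genes called is not given for this filter or for the log2(RPKM + 1) scale. On the log2(RPKM + 1) scale the complement counts were 3 in Ov4Carbo, 3 in Ov4Carbo4 and 2 in Ov4Carbo7, the acute phase and cytokine counts 4 in Ov4Carbo and 16 in Ov4Carbo4, and those of the 9 genes 3 in Ov4Cis, 4 in Ov4Carbo7, 5 between the clones and 3 in Ov4Carbo7 against Ov4Carbo. The count of the 9 was 3 in Ov4Cis with only the lines compared and 4 in Ov4Carbo7 with the term for the title runs; the cause was not tested.

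Leaving out each replicate gave ranges, in the order Ov4Cis, Ov4Carbo, Ov4Carbo4 and Ov4Carbo7 against the parental line and Ov4Carbo7 against Ov4Carbo4. They were 4 to 6, 6 to 8, 5 to 7, 4 to 4 and 5 to 6 for other complement genes, 14 to 17, 9 to 13, 21 to 26, 9 to 14 and 27 to 29 for acute phase and cytokine genes, and 3 to 5, 3 to 5, 4 to 5, 4 to 7 and 8 to 8 for the 9 genes. Against Ov4Carbo, the 9 genes gave 4 to 5 in Ov4Carbo4 and 5 to 7 in Ov4Carbo7. Replicate numbers did not pair the samples: same-numbered deviations correlated between -0.394 and 0.437 over 30 pairs (median -0.022, 11 over 0.1), and 4 of 15 samples correlated best with their own number. With the replicate block the counts in the same order were 6, 7, 6, 4 and 6 for complement genes, 16, 11, 26, 14 and 29 for acute phase and cytokine genes, and 4, 3, 4, 6 and 8 for the 9 genes. Depth is unknown, so the counting error of differences near the floor, such as those of CFB, and of HP outside Ov4Cis, could not be estimated.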

Other observations

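Against its source population Ov4Carbo, the clone Ov4Carbo4 had mostly lower and the clone Ov4Carbo7 mostly higher values among the called genes of the lists. In Ov4Carbo4 8 of 16 other complement genes were called, 2 higher and 6 lower (14.2% of all genes were called), and 21 of 54 acute phase and cytokine genes, 6 higher and 15 lower. CP fell by 4.14 and LCN2 by 4.01, with adjusted p = 3.6e-07 and 0.00256 (limma, Benjamini-Hochberg), and CNTFR rose by 4.75 (adjusted p = 7.43e-07). LCN2 varied widely among the Ov4Carbo replicates, at 3.60 ± 2.19 (mean ± SD, n = 3). In Ov4Carbo7 4 of 16 complement genes were called, all higher (13.3% of all genes were called), and 15 of 54 acute phase and cytokine genes, 14 higher and 1 lower. CP rose by 2.26 and IL1R1, the interleukin 1 receptor, by 2.47, with adjusted p = 5.33e-05 and 3.38e-05. Both comparisons share the Ov4Carbo samples, among them replicate 1, which belongs to the same title run as the clones. Between the selected populations, 7 of 16 complement genes were called in Ov4Cis against Ov4Carbo (5 higher, 2 lower; 13.8% of all genes).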
